A study of Mus musculus with 9 samples.

Results

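The genes described here are the receptors through which fibroblast growth factor (FGF) and epidermal growth factor (EGF) act on neural stem cells, together with genes that are switched on by, and act back on, the signal from these receptors. They are Fgfr1, Fgfr2, Fgfr3, Egfr and Erbb2 (receptors), Spry2, Spry4 and Dusp6 (feedback inhibitors) and Etv4 and Etv5 (ETS transcription factors). They were chosen by symbol from a table of counts per gene, because the cells had been grown in both factors. All 10 symbols were found among its 24503 rows, and all 10 were among the 13560 genes with enough counts to be tested.

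RNA was sequenced from primary neural stem cells of the cortex of mouse embryos at E13.5, enriched as neurospheres and then spread on laminin. The growth medium held EGF at 20 ng/mL and FGF at 10 ng/mL, and the laminin coat was put on at 5 µg/mL. Every group, controls included, was homozygous for a floxed Phf2 allele and labelled as otherwise wild type, and every group received virus. The virus carried a non-targeting hairpin in the shNT group, and a hairpin against Rad21, a subunit of the cohesin ring, in the shRad21_1 and shRad21_2 groups. The groups therefore differ in the hairpin, with 1 hairpin sequence per group. Each of the 3 groups had 3 libraries, and no source used here gives the time from infection to harvest. The labels do not say whether libraries of a group came from separate cultures or animals, so the p-values measure the spread between these libraries, which may be technical.

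FGF receptors and the EGF receptor are tyrosine kinases that, once a ligand binds, recruit adaptor proteins and activate RAS, RAF, MEK and the kinase ERK. ERK signalling switches on Etv4, Etv5, Dusp6 and the Sprouty genes, and the products of Dusp6 and the Sprouty genes then dampen the same pathway. In cultured neural stem cells, FGF and EGF in the medium sustain proliferation, so the levels of these genes bear on both the reception and the read-out of the signal.

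Rad21, the target of the hairpins, was below every shNT library in each of the 6 knockdown libraries. It stood at 531, 449.7 and 456 CPM (counts relative to the scaled library total) in shNT, at 187, 174 and 178 CPM in shRad21_1 and at 82.0, 91.2 and 82.5 CPM in shRad21_2. Library totals ran from 34780003 to 46644607 counts, so 3 counts correspond to at most 0.0880 CPM. Within shNT and within shRad21_1, replicates 2 and 3 lay close together (chi-square per gene 3.18 and 2.18) and replicate 1 lay apart from both. All other pairs within a group were between 23.0 and 69.6, and shRad21_1 replicate 1 sat at 12.6 on the first principal component against -20.3 and -21.2 for its group's other libraries. The stem cell markers Nes, Sox2, Pax6, Vim, Fabp7 and Olig2 were present in all 9 libraries (Sox2 from 267 to 449.7 CPM). The 16 stem cell markers listed summed to between 11563 and 11716 CPM in shNT, between 9470.2 and 11436 in shRad21_1 and between 9511 and 10637 in shRad21_2, where 5 rose and 7 fell (median log2 fold change -0.38). Among them Nes rose (1.03) and Ptprz1 (-1.94) and Slc1a3 (-0.95) fell under shRad21_2, all 3 named after their values were seen. Markers of other cell types also moved with the groups, not all in 1 direction. Beside the counts of markers given here, 43.6% of all genes tested were called under shRad21_2 (21.1% higher and 22.5% lower). The 14 neuronal markers summed to between 790.4 and 938 CPM in shNT, between 916 and 1045 in shRad21_1 and between 955 and 1085 in shRad21_2. Most of this was Map2 (793 ± 78.8 CPM in shNT). Under shRad21_2, 1 of the 10 tested rose and 5 fell. The 7 endothelial and 8 mesenchymal markers summed to at most 15.0 and 25.2 CPM in any library. In each of these lists, 2 of 4 tested fell under shRad21_2. Some markers of these and the other lists had few counts in shRad21_2 and were tested only through groups where they were higher. Falls of such markers carry no weight as a count. Among them were Flt1 (0 CPM in every shRad21_2 library), Pdgfrb (0.0605 ± 0.0286 CPM in shRad21_2) and Gfap (0.0383 ± 0.0435). The 12 astrocyte markers summed to between 1617 and 1656 CPM in shNT, to 944, 1474 and 1486 CPM in shRad21_1 (replicate 1 the lowest) and to between 608 and 700.1 CPM in shRad21_2, where 9 of the 11 tested fell and 0 were called higher. Gja1 stood higher there without a call (155 ± 13.0 CPM, against 108 ± 22.3 in shNT). Gjb6, not tested, was at 0 in every library except shNT replicate 3 (0.0222 CPM). The 11 oligodendrocyte lineage markers summed to between 245 and 247 CPM in shNT, between 144 and 241 in shRad21_1 and between 99.3 and 110.2 in shRad21_2, where 7 of the 8 tested fell. The 9 microglial markers summed to between 1.82 and 3.16 CPM in shNT, between 1.38 and 2.47 in shRad21_1 and between 0.342 and 0.762 in shRad21_2. Of these, Aif1, Cx3cr1, C1qa and C1qb were at 0 in all libraries, and P2ry12, the only 1 tested, fell under shRad21_2 (-2.37). P2ry12 made up most of each sum (2.19 ± 0.726 CPM in shNT), so these sums mainly follow 1 gene. In these bulk samples, fewer cells of a type and less RNA per cell cannot be told apart, and the part of these marker shifts in the results below was not tested.

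Of the 5 receptors, 3 fell under shRad21_2, where 43.6% of all genes were called. Of the 3 feedback inhibitors, 0 were called against shNT by edgeR in the fit of all 9 libraries, or by DESeq2 and limma-voom. Spry2 had an unadjusted p under 0.05 under shRad21_2. It was called there in 5 of 19 alternative analyses, and Spry4 in 1 of 19. With so few genes, these counts do not set receptors and feedback inhibitors apart. Under shRad21_2, the stronger knockdown, Fgfr2, Fgfr3 and Egfr fell against shNT and Etv4 rose, while under shRad21_1 only Fgfr2 fell. That is 1 of 10 genes called for shRad21_1 against shNT, where edgeR called 9.82% of all genes (4.19% higher and 5.63% lower). It is 4 of 10 for shRad21_2 against shNT, where 43.6% of all genes were called (21.1% higher and 22.5% lower). It is 4 of 10, all lower (Fgfr2, Fgfr3, Egfr and Spry2), for shRad21_2 against shRad21_1, where 26.3% were called (11.9% higher and 14.4% lower). Called means an adjusted p under 0.05 (Benjamini-Hochberg over all genes tested). The 2 comparisons with shNT share its 3 libraries. The median log2 fold change of the 10 genes was -0.04, -0.14 and -0.21 in the 3 comparisons, beside 0.01, 0.01 and -0.00 over all genes tested. The shares called among the 10 are close to those over all genes for both comparisons with shNT, so the counts by themselves say nothing particular about these genes, and the values of single genes follow.

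**Figure D1:**
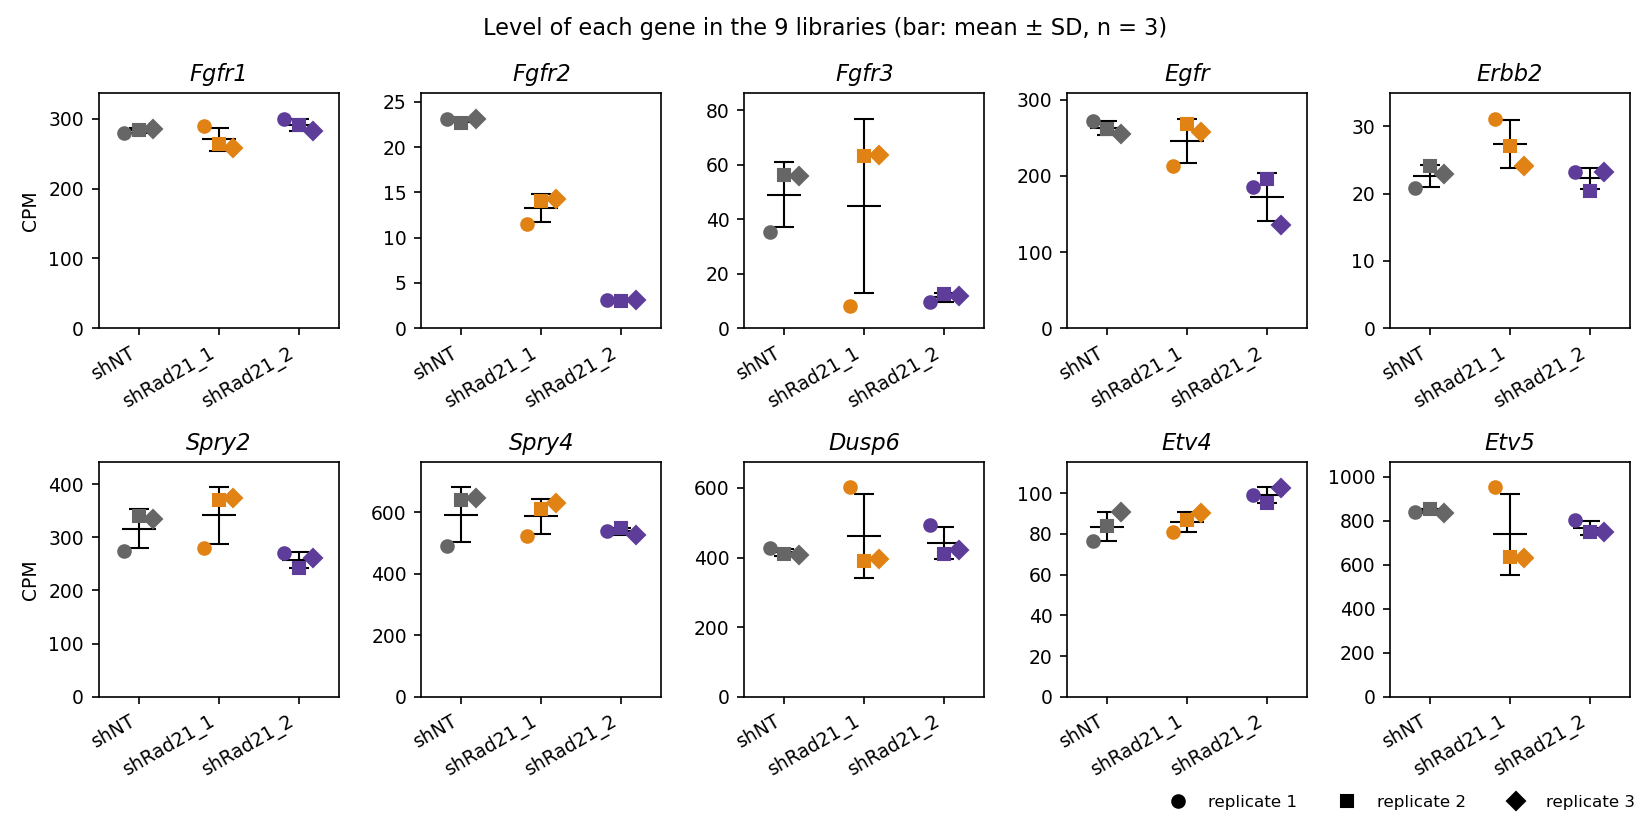
Level of each of the 10 genes in CPM (vertical axes from 0, each gene on its own scale) in the 3 libraries of each group, with the mean and SD. Fgfr2 steps down from 22.9 to 13.3 to 3.06 CPM with little scatter, whereas Fgfr3, Dusp6 and Etv5 have 1 shRad21_1 library, replicate 1, far from the other 2.

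Promoter sequences are shown for the 3 receptors that fell under shRad21_2 and, for contrast, for Dusp6, which was not called in any comparison. Each is the 300 bases of RefSeq (GRCm38.p6) from 250 before to 50 after the annotated start, written 5′ to 3′ on the gene's strand. Capitals mark CG dinucleotides. The windows are chr7:130266759-130267058 (minus strand) for Fgfr2, chr5:33721474-33721773 (plus) for Fgfr3, chr11:16751953-16752252 (plus) for Egfr and chr10:99262981-99263280 (plus) for Dusp6.
Fgfr2: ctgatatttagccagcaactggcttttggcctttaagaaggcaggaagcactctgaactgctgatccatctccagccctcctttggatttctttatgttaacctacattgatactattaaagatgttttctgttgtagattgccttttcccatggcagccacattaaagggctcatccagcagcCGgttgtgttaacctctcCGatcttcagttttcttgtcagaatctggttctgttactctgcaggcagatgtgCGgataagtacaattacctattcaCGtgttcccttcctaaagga
Fgfr3: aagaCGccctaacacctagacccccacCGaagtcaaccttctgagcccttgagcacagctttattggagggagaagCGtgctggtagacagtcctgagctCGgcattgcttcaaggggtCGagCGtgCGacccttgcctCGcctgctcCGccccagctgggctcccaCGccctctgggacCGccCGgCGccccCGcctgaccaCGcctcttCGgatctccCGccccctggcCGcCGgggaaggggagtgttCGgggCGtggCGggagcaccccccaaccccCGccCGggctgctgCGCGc
Egfr: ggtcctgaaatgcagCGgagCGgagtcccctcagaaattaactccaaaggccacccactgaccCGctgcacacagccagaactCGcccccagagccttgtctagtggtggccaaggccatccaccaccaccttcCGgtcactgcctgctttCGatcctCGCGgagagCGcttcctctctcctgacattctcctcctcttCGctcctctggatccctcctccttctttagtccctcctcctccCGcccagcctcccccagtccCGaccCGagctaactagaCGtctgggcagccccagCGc
Dusp6: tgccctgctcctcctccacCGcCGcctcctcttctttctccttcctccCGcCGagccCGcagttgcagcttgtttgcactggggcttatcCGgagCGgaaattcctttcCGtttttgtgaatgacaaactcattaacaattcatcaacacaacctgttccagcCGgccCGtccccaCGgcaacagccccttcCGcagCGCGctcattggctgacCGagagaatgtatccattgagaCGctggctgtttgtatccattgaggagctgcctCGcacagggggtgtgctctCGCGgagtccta

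Among the 9 windows of these genes, that of Fgfr2 was the lowest in CG dinucleotides and in G or C. It holds 4 CG dinucleotides and 43.7% G or C, at percentile 18.2 of the 32851 windows of the same table (median 52.7%). Its CG count relative to that expected from its C and G content was 0.282, at percentile 39.8 (median 0.384). By that measure it was not unusual among all windows. It is also 1 window for a gene with 27 annotated transcripts. The first of the Fgfr3 windows holds 26 CG dinucleotides, the Egfr window 15 and the Dusp6 window 19. The other windows of these genes, 1 for Spry2, 1 for Erbb2, 2 for Etv5 and a second for Fgfr3, hold between 19 and 37. An exact search on both strands for CCGGAAGT (an ETS motif, in 3.89% of all windows), TGACGTCA (the cyclic AMP response element, in 1.79%) and CCANNAGGG (the core of the CTCF motif, in 5.98%) found no match in any of the 9 windows of the 7 genes searched. The letters are thus not in these windows, which says nothing of binding elsewhere.

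Fgfr2 was the member with the largest difference. It encodes an FGF receptor with splice forms for different ligands, and lies on chromosome 7 from 130162451 to 130266808 (minus strand; all positions are from RefSeq for GRCm38.p6). Its level was 23.1, 22.7 and 23.1 CPM in shNT. It was 11.5, 14.0 and 14.3 CPM in shRad21_1 and 3.10, 2.99 and 3.08 CPM in shRad21_2. The 3 groups did not overlap, and the order of the groups for Fgfr2 was that for Rad21. With 1 hairpin sequence per group, the depth of knockdown and the hairpin sequence cannot be told apart. The counts behind the lowest values were 140, 102 and 108 in the shRad21_2 libraries. Under shRad21_1, Fgfr2 had a log2 fold change of -0.79 and fell (SE 0.11, 95% interval -1.03 to -0.55, edgeR adjusted p = 0.00259). Under shRad21_2 it fell by 2.91 (SE 0.12, interval -3.17 to -2.64, edgeR adjusted p = 4.88e-07), that is, to a level 7.49-fold lower. Between the hairpins the log2 difference was -2.12 (SE 0.12, edgeR adjusted p = 7.44e-06), with shRad21_2 the lower. The call under shRad21_1 was lost in 1 of 19 alternative analyses, with the close pairs of libraries summed (-0.84, adjusted p = 0.053; range over the 19, 1.78e-08 to 0.053). The calls under shRad21_2 held in all 19.

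Fgfr3, a receptor that is also known as a marker of astrocytes and their precursors, was low in all shRad21_2 libraries and in 1 shRad21_1 library. The gene lies on chromosome 5 from 33721724 to 33737068 (plus strand). Its level was 35.4, 56.1 and 55.8 CPM in shNT, and 9.59, 12.8 and 11.8 CPM in shRad21_2, with no overlap. In shRad21_1 it was 8.13 CPM in replicate 1, below every other library, and 63.4 and 63.5 CPM in replicates 2 and 3, above every shNT library. Replicate 1 was thus at 0.128 of the mean of the other 2 libraries of its group. Fgfr3 fell under shRad21_2 (log2 fold change -2.11, SE 0.58, interval -3.41 to -0.82, edgeR adjusted p = 0.0149), a level 4.32-fold lower. Against shRad21_1, the shRad21_2 value was -1.99 (SE 0.58, edgeR adjusted p = 0.0316), although the groups overlapped, shRad21_1 replicate 1 lying below the shRad21_2 libraries. Under shRad21_1 the log2 fold change was -0.13 with an interval from -1.35 to 1.10 (edgeR adjusted p = 0.915), and 0.37 without replicate 1. The library in which Fgfr3 was low in shRad21_1 is also the one in which astrocyte markers summed to 944 CPM. The sums of oligodendrocyte lineage (144 CPM) and stem cell markers (9470 CPM) were the lowest of the group there too. The astrocyte marker Gja1 went the other way, with its highest value of all libraries (218 CPM). A link with Fgfr3 was not tested. The shRad21_2 call was lost without shRad21_2 replicate 1 (-2.0, adjusted p = 0.0565; range over 19 alternatives 1.18e-06 to 0.0565). The call between the hairpins was lost in 8 of 19, among them without any single shRad21_2 library or without shRad21_1 replicate 2 or 3 (adjusted p from 1.36e-06 to 0.168 over the 19).

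Fgfr1, the third FGF receptor of the set, did not pass the test in any comparison. It lies on chromosome 8 from 25518759 to 25575718 (plus strand). Its level was 279.9, 285 and 286 CPM in shNT, 289.6, 264 and 258 CPM in shRad21_1, and 300.3, 292 and 283 CPM in shRad21_2. The groups overlapped throughout, and the whole range over 9 libraries was narrow beside those of Fgfr2 and Fgfr3. The log2 fold change was -0.07 under shRad21_1 (interval -0.22 to 0.08) and 0.04 under shRad21_2 (interval -0.11 to 0.19), with edgeR adjusted p = 0.582 and 0.645. The sign under shRad21_2 was negative (-0.03) when libraries were scaled by their totals. Gm16159, listed as antisense to Fgfr1, was in the table but had too few counts to be tested, and the strand setting of the counting is not stated in the labels.

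The makeup of the FGF receptor mRNA differed between the groups. Levels per gene length (CPM per kb of exon union) allow the 3 receptors to be set side by side. Fgfr1 made up 79.6%, 74.0% and 74.1% of the summed per-length level of Fgfr1, Fgfr2 and Fgfr3 in shNT. It made up 92.8%, 72.3% and 71.7% in shRad21_1, and 94.9%, 93.4% and 93.6% in shRad21_2. The shRad21_2 libraries were all above every shNT library, and shRad21_1 replicate 1 lay near them. The Fgfr2 share was between 5.82% and 6.47% in shNT, between 3.63% and 3.91% in shRad21_1 and between 0.945% and 1.00% in shRad21_2, with no overlap. The Fgfr3 share was between 13.9% and 20.1% in shNT, 3.59%, 23.9% and 24.4% in shRad21_1, and between 4.18% and 5.64% in shRad21_2. The summed level was 37.8 ± 1.95 CPM per kb in shNT, 35 ± 2.95 in shRad21_1 and 31.4 ± 0.730 in shRad21_2 (SD, n = 3 each). Fgfr1, the largest part of the sum, had 28.7 ± 0.310 CPM per kb in shNT and 29.5 ± 0.869 in shRad21_2. Fgfr4, the remaining FGF receptor with a kinase domain, had at most 0.236 CPM in shNT and was not tested.

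**Figure D2:**
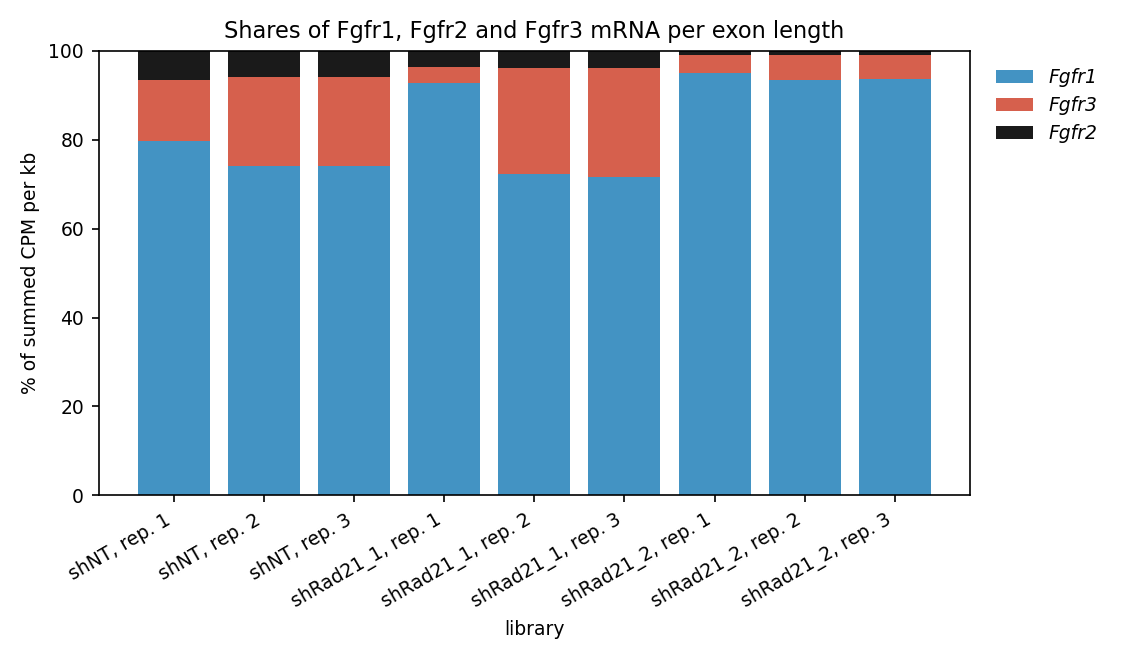
Shares of Fgfr1, Fgfr2 and Fgfr3 in their summed level (CPM per kb of exon union, in percent) in each of the 9 libraries. Fgfr1 takes 74.0% to 79.6% in shNT and 93.4% to 94.9% in shRad21_2, and shRad21_1 replicate 1 (92.8%) resembles the latter more than its own group.

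Egfr, the receptor for the EGF in the medium, fell under shRad21_2. It lies on chromosome 11 from 16752203 to 16913907 (plus strand). Its level was 272, 262 and 255 CPM in shNT, 212, 268 and 257 CPM in shRad21_1, and 185, 195 and 136 CPM in shRad21_2. The shRad21_2 libraries lay below all 6 others, and shRad21_1 replicate 1 was the lowest of those 6. The log2 fold change was -0.61 under shRad21_2 (SE 0.13, interval -0.91 to -0.31, edgeR adjusted p = 0.0049), a level 1.53-fold lower, and the call held in all 19 alternatives (highest adjusted p 0.0237). Against shRad21_1 the value was -0.51 (SE 0.13, edgeR adjusted p = 0.0199). That call was lost in 4 of 19 alternatives, among them without shRad21_1 replicate 2 (-0.45) or replicate 3 (-0.48), with adjusted p from 0.00265 to 0.109 over the 19. Under shRad21_1 it was -0.10 (interval -0.39 to 0.20, edgeR adjusted p = 0.696).

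Erbb2, the EGF receptor's partner with no known soluble ligand of its own, was not called in any comparison. It lies on chromosome 11 from 98412484 to 98437716 (plus strand). It stood at 20.8, 24.1 and 23.0 CPM in shNT, 31.1, 27.1 and 24.1 CPM in shRad21_1 and 23.2, 20.4 and 23.2 CPM in shRad21_2. The shRad21_1 values were the higher ones and met the shNT range at its top. The log2 fold change was 0.28 under shRad21_1 (interval 0.02 to 0.53, edgeR adjusted p = 0.153) and -0.02 under shRad21_2 (interval -0.28 to 0.23, adjusted p = 0.883). Between the hairpins it was -0.30 (edgeR adjusted p = 0.0763), with groups that did not overlap. Mien1, on the opposite strand, overlaps Erbb2, so that reads of the 2 genes may be mixed if strand was not used in counting. Per gene length, Egfr made up between 83.3% and 85.8% of Egfr and Erbb2 together in shNT, between 75.8% and 83.1% in shRad21_1 and between 72.9% and 81.5% in shRad21_2.

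**Figure D3:**
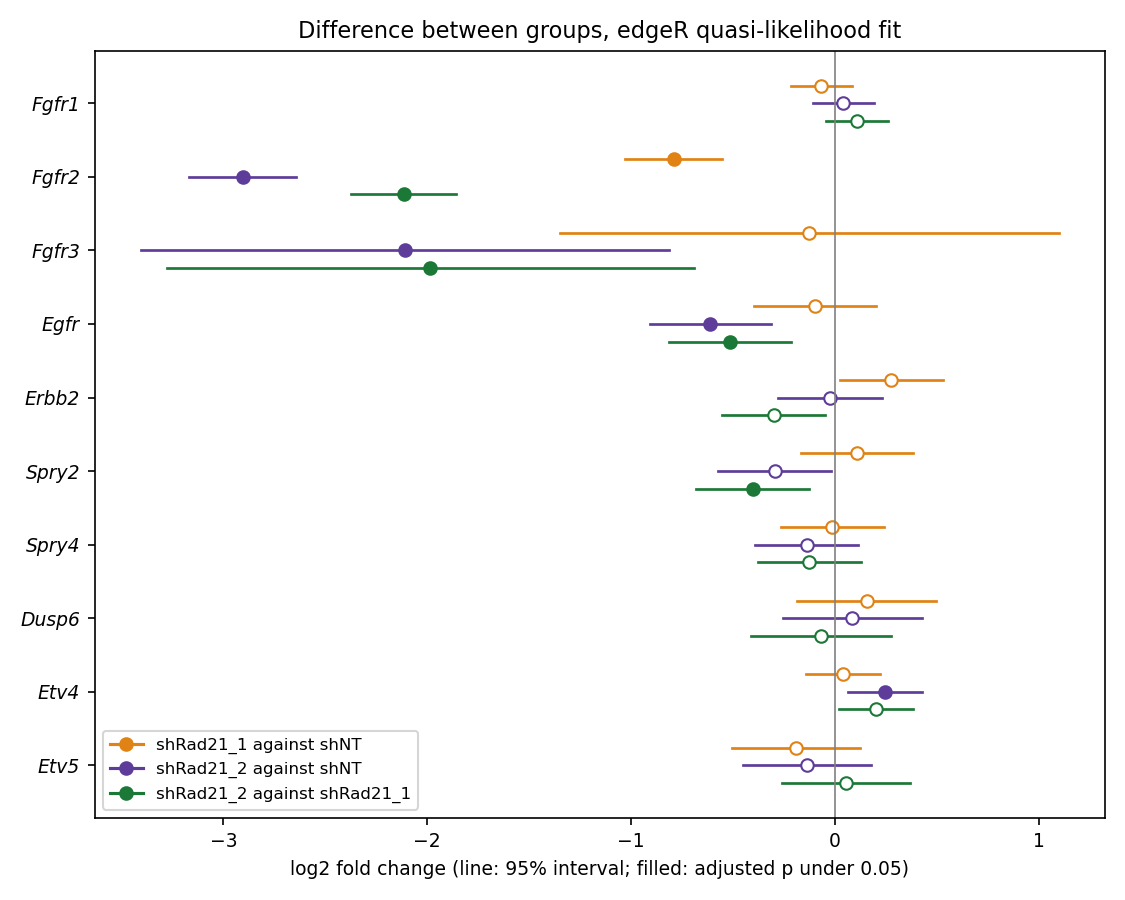
Log2 fold change of each gene (horizontal axis, point) with its 95% interval (line) in the 3 comparisons, from the edgeR fit of all 9 libraries; filled points have an adjusted p under 0.05. Fgfr2 under shRad21_2 (-2.91) lies farthest from 0, and the intervals of Fgfr3 are the widest.

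The feedback inhibitors stayed within narrower limits than Fgfr2 and Fgfr3, but within wider limits than Fgfr1. Spry2, a Sprouty protein that restrains RAS and ERK activation downstream of receptor kinases, lies on chromosome 14 from 105891947 to 105896819 (minus strand). Its level was 274, 340 and 335 CPM in shNT, 279.7, 369 and 374 CPM in shRad21_1, and 270.5, 242 and 261 CPM in shRad21_2. Replicate 1 was the lowest library in both shNT and shRad21_1, and all shRad21_2 libraries were below all others. Spry2 fell in shRad21_2 relative to shRad21_1 (log2 fold change -0.40, SE 0.12, edgeR adjusted p = 0.0379). This call was lost in 9 of 19 alternatives, among them without shNT replicate 2 or 3, shRad21_1 replicate 2 or 3, or any shRad21_2 library (values from -0.44 to -0.33 and adjusted p from 0.0547 to 0.177 over the 9; adjusted p from 0.000852 to 0.177 over the 19). Against shNT, the value under shRad21_2 was -0.30 (interval -0.57 to -0.02, edgeR adjusted p = 0.0771). It passed the threshold in 5 of 19 alternatives, among them without shNT replicate 1 (-0.39, adjusted p = 0.038) and without shRad21_1 replicate 1 (-0.29, adjusted p = 0.0202). Under shRad21_1 it was 0.11 (interval -0.17 to 0.38, adjusted p = 0.632).

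Spry4, a second Sprouty inhibitor, lies on chromosome 18 from 38586247 to 38601347 (minus strand) and did not pass the test in any comparison. It stood at 488, 641 and 645 CPM in shNT, 522, 609 and 628 CPM in shRad21_1, and 540.1, 548 and 525 CPM in shRad21_2. As for Spry2, replicate 1 was the lowest of its group in shNT and in shRad21_1 (0.760 and 0.843 of the mean of the other libraries). The log2 fold change was -0.01 under shRad21_1 (interval -0.27 to 0.24) and -0.14 under shRad21_2 (interval -0.39 to 0.12), with edgeR adjusted p = 0.962 and 0.352. With the first libraries of shNT and shRad21_1 both left out, the shRad21_2 value was -0.26 and was called (edgeR adjusted p = 0.0116; range over 19 alternatives 0.0116 to 0.716).

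Dusp6, a phosphatase that removes the activating phosphates from ERK, lies on chromosome 10 from 99263231 to 99267489 (plus strand). Its level was 427, 411 and 408 CPM in shNT, 602, 391 and 396 CPM in shRad21_1, and 493, 409 and 421 CPM in shRad21_2. In shRad21_1, replicate 1 was at 1.53 times the mean of the other 2 libraries, and it was also the highest library in shNT and in shRad21_2. The log2 fold change was 0.16 under shRad21_1 (interval -0.19 to 0.50) and 0.09 under shRad21_2 (interval -0.26 to 0.43), with edgeR adjusted p = 0.571 and 0.676. Without shRad21_1 replicate 1 the first of these values was -0.08. Both intervals include 0 and reach no farther than 0.50 from it.

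Etv4 and Etv5, the ETS factors, differed less between the groups than Fgfr2 or Fgfr3. Etv4 lies on chromosome 11 from 101769747 to 101785310 (minus strand). Its level was 76.6, 83.7 and 90.6 CPM in shNT, 80.9, 86.7 and 90.5 CPM in shRad21_1, and 99.4, 95 and 103 CPM in shRad21_2, which was above all other libraries. Etv4 rose under shRad21_2 (log2 fold change 0.24, SE 0.08, interval 0.06 to 0.43, edgeR adjusted p = 0.0334), a level 1.18-fold higher. The call was lost in 8 of 19 alternatives, among them without shNT replicate 1 (0.19) or 2 (0.25), without shRad21_1 replicate 2 (0.25), and without shRad21_2 replicate 1 (0.24) or 3 (0.22), with adjusted p from 0.0206 to 0.114 over the 19. Under shRad21_1 the value was 0.04 (interval -0.14 to 0.22, adjusted p = 0.798). Against shRad21_1, shRad21_2 was at 0.20 (edgeR adjusted p = 0.0901).

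Etv5 had the most counts of the set relative to its length. It lies on chromosome 16 from 22381313 to 22439570 (minus strand). Its level was 841, 853 and 838 CPM in shNT, 953, 636 and 631 CPM in shRad21_1, and 804, 751 and 750.2 CPM in shRad21_2. The shRad21_2 libraries were below all shNT libraries, and the shRad21_1 libraries lay on both sides of them. The log2 fold change was -0.14 under shRad21_2 (interval -0.45 to 0.18, edgeR adjusted p = 0.463) and -0.19 under shRad21_1 (interval -0.50 to 0.12, adjusted p = 0.436). Without shRad21_1 replicate 1, Etv5 was called lower under shRad21_1 (-0.41, edgeR adjusted p = 0.0047; range over 19 alternatives 0.0047 to 0.867) and higher in shRad21_2 than in shRad21_1 (0.28, adjusted p = 0.013). For Etv5, 1 library thus decides whether a difference under shRad21_1 is called.

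**Figure D4:**
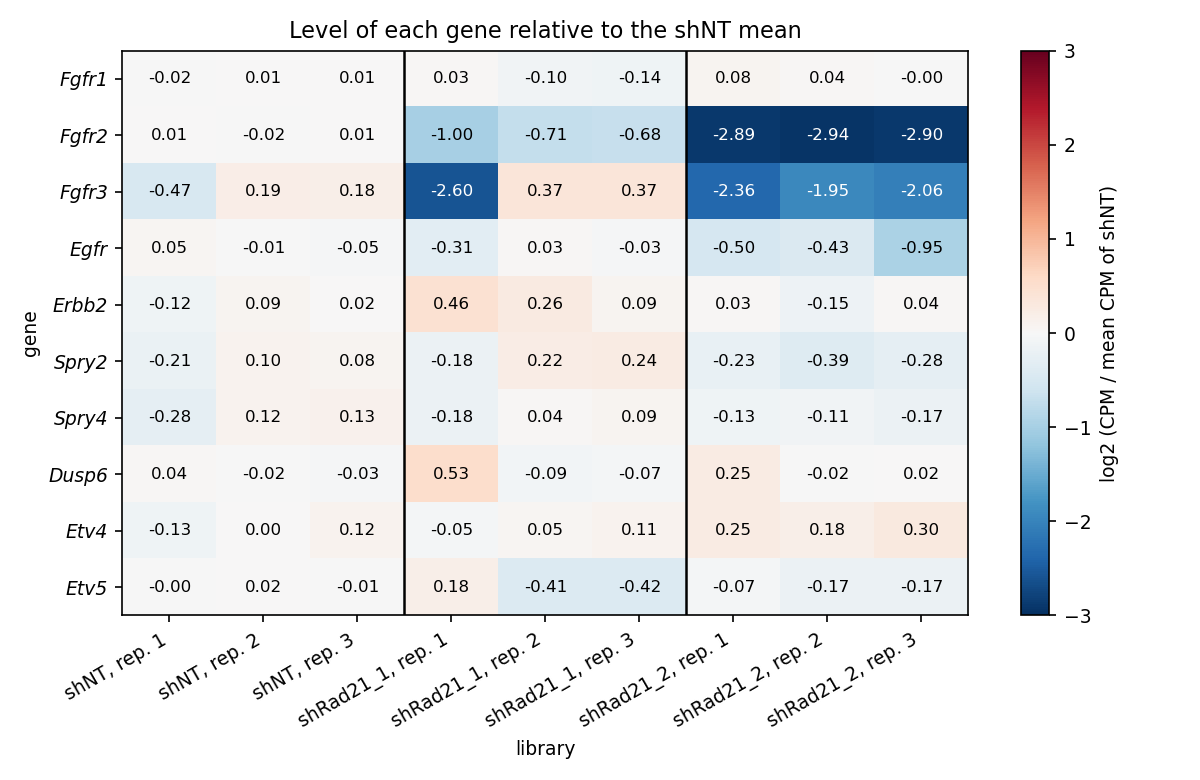
Log2 level of each gene (rows) in each library (columns) relative to the mean of shNT, on a colour scale from -3 to 3 with the value printed. Fgfr2 and Fgfr3 are the darkest cells in shRad21_2, and shRad21_1 replicate 1 shows Fgfr3 at -2.60 with Dusp6 at 0.53, unlike replicates 2 and 3.

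In shRad21_1 replicate 1, several of the 10 genes stood apart together. Relative to the mean of replicates 2 and 3, Fgfr3 was at 0.128, Spry2 at 0.753, Egfr at 0.810, Fgfr2 at 0.812 and Spry4 at 0.843. Dusp6 was at 1.53, Etv5 at 1.5, Erbb2 at 1.22 and Fgfr1 at 1.11 of that mean. The ratio of replicate 2 to replicate 3 in the same group, by contrast, was between 0.958 (Etv4) and 1.13 (Erbb2). In shNT, replicate 1 was at 0.634 for Fgfr3, 0.760 for Spry4 and 0.812 for Spry2 and between 0.879 and 1.05 for the others. Both first libraries were thus low in Fgfr3, Spry2 and Spry4.

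Set side by side per gene length, Etv5 and the feedback inhibitors were above every receptor, whereas Etv4 lay among the receptors. In shNT, Etv5 had 206 ± 1.99 CPM per kb, Spry2 152 ± 17.6, Dusp6 133 ± 3.30 and Spry4 124 ± 18.8 (SD, n = 3 each). The Spry2 and Dusp6 means each lay outside the spread of the other. The Dusp6 mean lay within the spread of Spry4, but the Spry4 mean lay outside the narrower spread of Dusp6. Etv5 lay above all 3. Fgfr1 followed with 28.7 ± 0.310, Etv4 with 26.9 ± 2.26 and Egfr with 23.2 ± 0.786 CPM per kb. The Fgfr1 mean lay within the spread of Etv4, but the Etv4 mean lay outside the narrower spread of Fgfr1. Fgfr3 had 6.86 ± 1.65, Erbb2 4.34 ± 0.319 and Fgfr2 2.29 ± 0.0208. The receptor that changed most, Fgfr2, was thus the least abundant of the set in shNT by this measure. With the longest transcript as the length, Erbb2 (4.51) and Fgfr2 (5.18) exchanged places, and Fgfr1 (56.2) stood clear of Etv4 (34.9). In shRad21_2 Fgfr2 had 0.305 ± 0.00584 CPM per kb and Fgfr3 1.59 ± 0.227, while Etv5 had 187 ± 7.57 and Dusp6 141 ± 14.5. Etv5 made up between 87.5% and 89.3% of Etv4 and Etv5 together per length in shNT, and between 84.7% and 86.0% in shRad21_2.

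Other genes of the pathway were taken from 6 lists. Of the 101 genes tested in them, 8 rose and 1 fell under shRad21_1 (8.91%, beside 9.82% of all genes), and 22 rose and 21 fell under shRad21_2 (42.6%, beside 43.6%). Their shares called were thus close to the background, with medians of 0.07 and 0.08. By list, in the order given below, the shares called under shRad21_2 were 52.9%, 66.7%, 46.2%, 36.8%, 30.4% and 43.5%. Under shRad21_1 they were 11.8%, 0%, 15.4%, 0%, 8.7% and 13%. Both counts of genes that rose (8 and 22) include Fgf13 and Fgf5, and the second also Fgf18. These had enough counts to be tested only through the knockdown libraries. The 21 that fell under shRad21_2 include Nrg1, which was tested only through shNT and shRad21_1 libraries. With a filter of at least 1 CPM in 3 libraries, 6 of 92 rose and 1 fell under shRad21_1. In shRad21_2 against shRad21_1, 9 rose and 15 fell (23.8%, beside 26.3%). The shRad21_1 count of 9 was 5 without shNT replicate 2 or 3 or shRad21_1 replicate 3, and 1 with close pairs of libraries summed.

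The first list holds genes of the FGF and EGF families, and besides ligands it includes FGF homologous factors such as Fgf13 and Fgf11. Its counts are therefore not counts of receptor ligands. Among its 17 genes tested, the only ones called under shRad21_1 were Fgf13 and Fgf5. These were higher under both hairpins, from very low levels. Both had enough counts to be tested only through the knockdown libraries, where they were high, so their calls carry no weight as a count. They dropped out of the test with a filter of at least 1 CPM in 3 libraries or with only shRad21_1 and shNT compared. In both settings edgeR called 0 genes of the list (2 of 9 and 0 of 14 at an unadjusted p under 0.05). With all 9 libraries DESeq2 and limma-voom called 2 each. With no filter on low counts, Fgf13 and Fgf5 had edgeR adjusted p of 0.0103 and 0.0452 under shRad21_1. These p-values rest on the same few shNT counts and are given as a description only. Fgf13, which encodes a non-secreted FGF homologous factor, had 4 counts in the 3 shNT libraries together, 42 in shRad21_1 and 113 in shRad21_2. The ratios to shNT, from counts summed over libraries, were 11.6 (95% interval of counting error alone, 4.22 to 44.6) and 30.6 (11.6 to 114). The spread between libraries is not in these intervals. Fgf5, a secreted FGF, likewise had 4, 29 and 56 counts, with ratios of 8.02 (2.82 to 31.4) and 15.2 (5.6 to 57.6). The Fgf5 call under shRad21_1 was lost in 9 of 17 alternatives. Under shRad21_2, 4 genes of the list rose and 5 fell, against 1 and 4 with the filter of 1 CPM and 2 and 3 with close pairs summed. Tgfa, a ligand of the EGF receptor, fell from 4.81 ± 0.596 to 1.65 ± 0.0790 CPM (SD, n = 3 each; log2 fold change -1.54, edgeR adjusted p = 0.000251). Fgf11, another FGF homologous factor, fell from 13.8 ± 0.124 to 2.59 ± 0.0301 CPM (-2.41, edgeR adjusted p = 0.00234). It was 2.34 CPM in shRad21_1 replicate 1 and 10.7 and 11.9 CPM in replicates 2 and 3, so replicate 1 was the low library of its group, as for Fgfr3, but all 3 lay below every shNT library. The other genes of the list called, named after their values were seen, were Fgf18 (1.99) and Nrg2 (0.83), which rose, and Nrg1 (-1.86), Fgf12 (-0.57) and Hbegf (-0.35), which fell. Fgf18 had 0.160 ± 0.0671 CPM in shNT and 0.640 ± 0.237 in shRad21_2. It was tested only through the knockdown libraries, so its call carries no weight as a count. Nrg1, also near the floor, had 0.389 ± 0.140 CPM in shNT and 0.100 ± 0.0649 in shRad21_2. It was tested only through shNT and shRad21_1 libraries, so its call carries no weight as a count either. The Hbegf call was lost in 10 of 19 alternatives, that of Fgf18 in 5 of 18 and that of Nrg1 in 4 of 17.

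Of 6 other receptors and co-receptors tested, 0 were called by edgeR under shRad21_1 (2 at an unadjusted p under 0.05, and 0 by DESeq2 and by limma-voom), while 3 fell and 1 rose under shRad21_2. Fgfrl1, an FGF receptor without a kinase domain, fell from 140 ± 5.46 to 63.6 ± 1.67 CPM (-1.14, edgeR adjusted p = 3.36e-05), and the call held in all 19 alternatives. The co-receptor genes Nrp1 (-0.43) and Sdc3 (-0.59) fell and Sdc1 rose (0.55). The Sdc3 call was lost in 5 of 19 alternatives. Of 13 adaptors, 3 rose and 3 fell under shRad21_2. Gab1, a docking protein used by the FGF and EGF receptors, went from 168 ± 5.09 CPM in shNT to 130 ± 6.48 in shRad21_1 and 75.6 ± 3.23 in shRad21_2. Gab1 fell under both hairpins (-0.37 with edgeR adjusted p = 0.0098, and -1.15 with adjusted p = 3.81e-06). The first call was lost without shNT replicate 2 and with close pairs summed. Gab2 fell by 0.65, whereas Sos2, which loads RAS with GTP, rose by 0.44 and Plcg1, a phospholipase bound by the receptors, rose by 0.36 under shRad21_2 and by 0.28 under shRad21_1, the latter call being lost in 7 of 19 alternatives. Ptpn11 (0.31) and Crkl (-0.21), named after their values were seen, made up the rest, and the Crkl call was lost in 6 of 19.

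The core of the pathway held smaller changes. Of 19 genes for RAS, RAF, MEK, ERK and their regulators, 0 were called by edgeR under shRad21_1 (4 at an unadjusted p under 0.05, and 0 by DESeq2 and by limma-voom), and 4 rose and 3 fell under shRad21_2, all by less than 1 on the log2 scale. Ksr1, a scaffold for RAF and MEK, fell by 0.65 and Araf by 0.29, while Hras rose by 0.53 and Rasa1, which turns RAS off, by 0.32. Rras2 (0.41) and Map2k1 (-0.25) were named after their values were seen. The Rras2 call was lost in 6 of 19 alternatives. The count under shRad21_2 was 3 without shNT replicate 3 and with close pairs summed, and that under shRad21_1 was 1 without shRad21_1 replicate 1 and 2 with only these groups compared.

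Feedback genes other than the 10 went both ways under shRad21_2, where 5 of 23 tested rose and 2 fell. Lrig1, which promotes the breakdown of the EGF receptor, stood at 501, 591 and 582 CPM in shNT, 264, 541 and 539.9 CPM in shRad21_1 and 141, 159 and 146 CPM in shRad21_2. All shRad21_2 libraries were below all others, and shRad21_1 replicate 1 was again the lowest of its group. Lrig1 fell under shRad21_2 (-1.91, edgeR adjusted p = 0.000175). Dusp9, an ERK phosphatase related to Dusp6, rose from 0.844 ± 0.209 to 3.0 ± 0.218 CPM (1.83), and Rasal1, which turns RAS off, rose from 0.468 ± 0.269 to 1.9 ± 0.0919 CPM (2.0). Spred2, a relative of the Sprouty genes, rose under both hairpins (0.43 and 0.51), as did Socs5 (0.45 and 0.35). The Spred2 call under shRad21_1 was lost in 6 of 19 alternatives and that of Socs5 with close pairs summed (adjusted p = 0.107). Lrig3 (0.69) and Errfi1 (-0.31), named after their values were seen, were also called under shRad21_2, and the Errfi1 call was lost in 7 of 19 alternatives. Without both first libraries of shNT and shRad21_1, 7 rose and 5 fell under shRad21_2.

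Of 23 other ETS factors and genes that respond to ERK, 3 rose under shRad21_1, and 5 rose and 5 fell under shRad21_2. Without shRad21_1 replicate 1 these were 5 higher and 2 lower, and 5 higher and 10 lower. With close pairs summed edgeR called 0 under shRad21_1 (6 at an unadjusted p under 0.05; with all 9 libraries DESeq2 called 6 and limma-voom 4). Myc rose under both hairpins (0.72 and 1.04), from 158 ± 26.7 CPM in shNT to 325 ± 32.6 in shRad21_2. The shRad21_1 call of Myc was lost in 5 of 19 alternatives. Ets1 also rose under both (0.71 and 0.45), and Emp1 rose under shRad21_1 (1.28). Both shRad21_1 calls were lost with close pairs summed (adjusted p = 0.0534 and 0.052), and the shRad21_2 call of Ets1 without shNT replicate 1 (adjusted p = 0.0553). Ier3, an early response gene, fell from 51.9 ± 11 to 8.08 ± 1.23 CPM under shRad21_2 (-2.68, edgeR adjusted p = 0.000193), and Lif (-1.12) and Pea15a (-0.50) fell. Fos (-2.96) and Egr1 (-1.57), named after their values were seen, made up the rest of those that fell. Egr1 stood at 397, 662 and 635 CPM in shNT, 138, 746 and 769 CPM in shRad21_1 and 218, 175 and 177 CPM in shRad21_2. Its call was lost in 6 of 19 alternatives, and replicate 1 was the lowest in shNT and in shRad21_1, as for Fgfr3, Spry2 and Spry4. Plaur (1.36), Elk3 (0.54) and Etv1 (0.30), likewise named afterwards, rose.

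**Figure D5:**
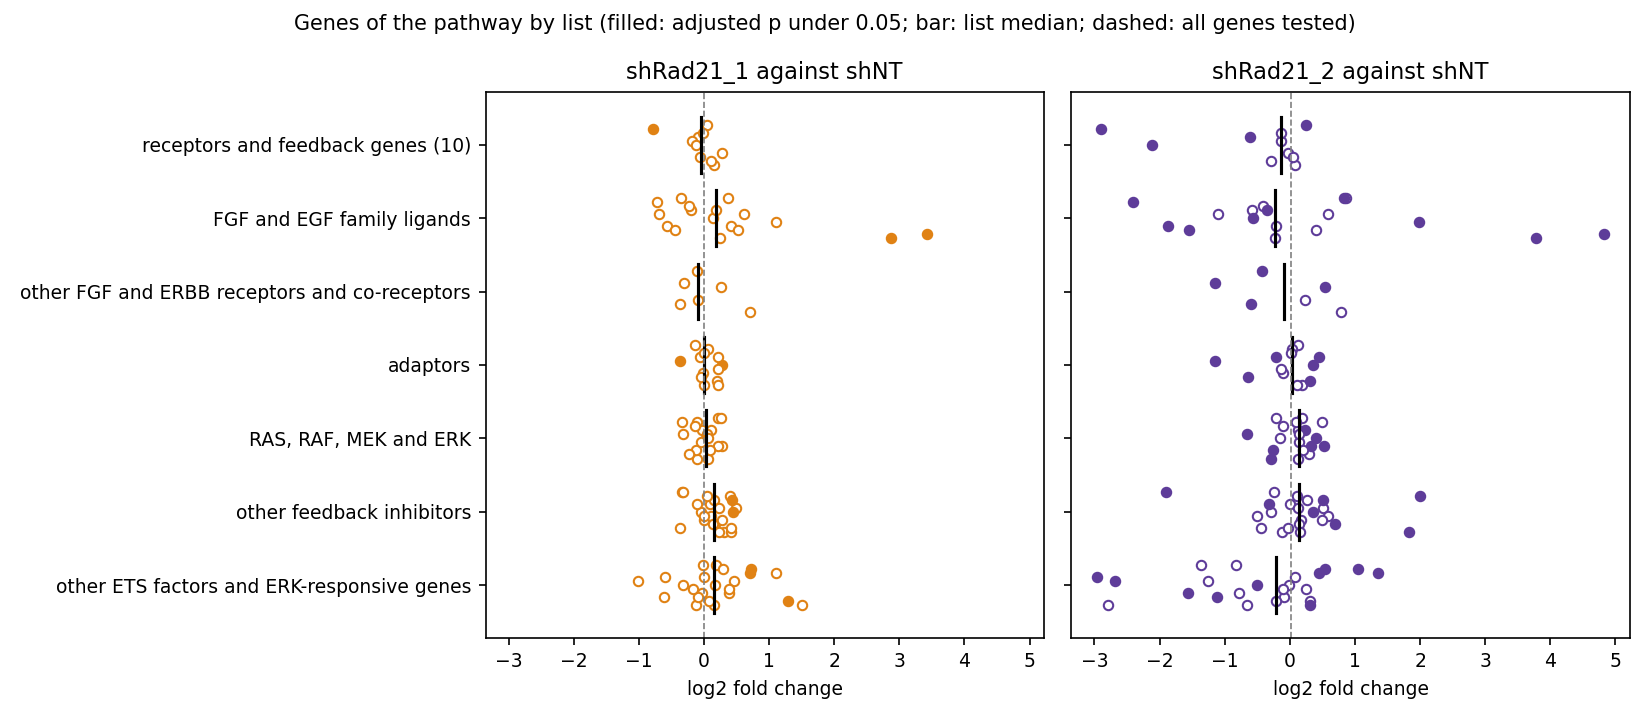
Log2 fold change against shNT (horizontal axis) of the 10 genes and of the genes tested in each of the 6 lists, for shRad21_1 (left) and shRad21_2 (right). Filled points have an edgeR adjusted p under 0.05, thick bars are list medians, and the dashed line is the median of all genes tested; the medians lie between -0.23 and 0.19.

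The genes next to each of the 10 on the chromosome were compared as well, using the nearest tested gene on either side. Of these 20 neighbours, 2 were called under shRad21_1 (10.0%, beside 9.82% of all genes), 10 under shRad21_2 (50%, beside 43.6%) and 5 between the hairpins (25.0%, beside 26.3%). Spry4 starts 270 bases from Arhgap26, which is transcribed in the opposite direction. Arhgap26 fell under shRad21_2 (-1.61, edgeR adjusted p = 0.000155) and so did Ndfip1 on the other side of Spry4 (-1.14, adjusted p = 0.000172), while Spry4 between them had -0.14. The neighbours of Fgfr2 lie 527 kb (Wdr11) and 125 kb (Ate1) away and had 0.04 and -0.26 under shRad21_2, of which Ate1 was called (edgeR adjusted p = 0.0313). Those of Fgfr3, Tacc3 at 49.5 kb and Letm1 at 2.60 kb, had 0.28 and 0.01 and were not called. Eldr, 20.8 kb beyond Egfr, rose by 1.27 (edgeR adjusted p = 0.00259) where Egfr fell, and both neighbours of Etv4, Dhx8 (0.40) and Dusp3 (0.77), rose as Etv4 did.

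For each of the 10 genes, the genes with the most similar pattern were found by Pearson's r of log2 CPM over the 9 libraries. These r values are a description, since the libraries share groups and close pairs. For Fgfr2 they were Src (r = 0.999), Skap2 (0.997) and Kcnmb4 (0.996), and 471 of the 13559 other genes had an r of at least 0.95. For Fgfr3 they were Glud1 (0.994), Slitrk2 (0.987) and Fos (0.987), with 95 such genes, and for Egfr Fam168a (0.988) and Tmem136 (0.985), with 39. Spry2 was most like Hapln4 (0.984), Cartpt (0.980) and Fam107b (0.977). Spry4 was most like Otub2 (0.978), Eno3 (0.971) and Dcp1b (0.942), Dusp6 like Klhdc7a (0.987), Ehd4 (0.973) and Actn1 (0.966), and Etv5 like Rgl1 (0.990), Triqk (0.971) and Plcl1 (0.953). Etv4 was most like Nfkbil1 (0.984), Pafah1b3 (0.982) and Htra2 (0.981). Fgfr1 was most like Kank2 (0.963), Zdhhc5 (0.956) and Fam53c (0.946), and Erbb2 like Srxn1 (0.966), Zscan21 (0.935) and Dcxr (0.935). The number of genes with an r of at least 0.95 was thus highest for Fgfr2, and it was 23 for Spry2, 10 for Dusp6, 6 for Etv4, 3 for Etv5, 2 for Fgfr1 and for Spry4 and 1 for Erbb2.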

How the data were processed

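The deposited table holds whole-number counts per gene symbol for 9 libraries of mRNA from mouse neural stem cells, with no normalization. Per the submitters' processing notes, the authors used FastQC, cutadapt, Trim Galore, Bowtie2, RSEM and the mouse build mm10; no source used here gives their versions, the annotation, the strand setting or the rounding of RSEM estimates. Reads shared by similar or overlapping genes may therefore be split by estimate.

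The test was edgeR's quasi-likelihood fit (edgeR 4.0.16, R 4.3.3; TMM scaling, filterByExpr, 3 group means over all 9 libraries, two-sided, Benjamini-Hochberg over 13560 genes). CPM use TMM-scaled totals. Intervals on fold changes use the fit's standard error and degrees of freedom at a confidence level of 0.95, and ratios of counts have exact Clopper-Pearson intervals, which cover counting error only. Alternatives used DESeq2 1.42.0, limma-voom (limma 3.58.1), other scalings and filters, 2 groups only, a replicate block, and libraries left out or summed. The scripts were tested on simulated data. Of simulated 2-fold changes, 80% were called for shRad21_1 and 76% for shRad21_2 against shNT. Of simulated 1.5-fold changes, 34% and 40% were called, so a gene not called may still differ. Groups follow the labels' titles.

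Replicate numbers were checked for pairing. Deviations from the group means correlated at 0.242, 0.116 and 0.117 between same-numbered libraries of shNT and shRad21_1, over the limit of 0.1 that was used, and at 0.0174 to 0.0886 otherwise. Numbers 2 and 3 of shNT matched numbers 3 and 2 of shRad21_1 best.

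Lengths came from GENCODE M21, matched by symbol for all 10 genes (readthrough transcripts beyond 10000 bases of the RefSeq gene left out, 1 of the 27 of Fgfr2), and positions and promoters from RefSeq GRCm38.p6. Promoter windows were used for 7 of the 10 genes. The 10 genes and the lists were chosen with earlier results of these data known. Named genes were the 10, Rad21, the 4 and 2 genes of each list with the smallest p under shRad21_2 and shRad21_1, and the 3 most similar to each of the 10. Values of some genes under these rules are not reported here.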

Additional observations from a re-analysis of the deposited data

How the results depend on the processing

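With 3 libraries a group, some of them close pairs, several calls depend on single libraries, among them that of Fgfr3 under shRad21_2, whereas that of Egfr under shRad21_2 held in all 19 alternatives. Of the alternative values of the 10 genes, 140 kept a call and 31 lost it, 367 stayed uncalled with the same sign, 12 gained a call and 20 changed sign without a call. For genes of the lists, 877 kept their call and 102 lost it. The causes were not tested.

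The number of the 10 genes called was, for shRad21_1 against shNT, 0 with close pairs summed, 2 with both first libraries of shNT and shRad21_1 left out, and 1 to 2 with single libraries left out (2 without shRad21_1 replicate 1). For shRad21_2 against shNT it was 2 to 5 with single libraries left out (2 without shRad21_2 replicate 1). For shRad21_2 against shRad21_1 it was 1 with only the 2 groups compared, 1 with close pairs summed and 1 to 5 with single libraries left out (1 without shRad21_1 replicate 2 or 3). Over all genes, shRad21_1 against shNT gave 2042 with the DESeq2 Wald test, 130 with close pairs summed and 460 to 1599 with single libraries left out (467 without shNT replicate 2, 460 without shNT replicate 3, 790 and 801 without shRad21_1 replicate 2 and 3). shRad21_2 against shNT gave 3707 with close pairs summed and 4263 to 6858 with single libraries left out. shRad21_2 against shRad21_1 gave 2233 with only the 2 groups compared, 1270 with close pairs summed and 2045 to 4486 with single libraries left out (2045 and 2055 without shRad21_1 replicate 2 and 3).

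Scaling by library totals shifted the median log2 fold change of all genes by -0.07 under shRad21_2 and by -0.06 between the hairpins, and gave 2167 higher and 3540 lower, and 1095 higher and 2310 lower, against 2861 and 3056, and 1608 and 1955. With a replicate block, 1, 4 and 4 of the 10 genes were called, as without it, and 1436, 6066 and 3643 genes in all; the block changed no call of the 10.

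Values that changed sign were all of genes not called. With single libraries left out, values in shRad21_1 against shNT ran from -0.46 to 0.37 for Fgfr3 (positive without shRad21_1 replicate 1), from -0.13 to 0.066 for Spry4 (positive without shNT replicate 2 or 3 or shRad21_1 replicate 1), from -0.078 to 0.26 for Dusp6 (negative without shRad21_1 replicate 1) and from -0.018 to 0.10 for Etv4 (negative without shNT replicate 1). With both first libraries left out, Fgfr3 was at 0.18, Egfr at 0.023 and Dusp6 at -0.058, and with close pairs summed Spry4 was at 0.012. In shRad21_2 against shNT, Erbb2 ran from -0.079 to 0.038 (positive without shNT replicate 2 or shRad21_2 replicate 2) and was at 0.0033 with close pairs summed, and Fgfr1 was at -0.031 with library totals. In shRad21_2 against shRad21_1, Dusp6 ran from -0.18 to 0.17 (positive without shRad21_1 replicate 1) and was at 0.17 with both first libraries left out. There Etv5 ran from -0.048 to 0.28 (negative without shRad21_1 replicate 2 or 3), and was at -0.0018 with library totals and -0.047 with close pairs summed.

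With the longest transcript as length, levels in shNT were 56.2 CPM per kb for Fgfr1, 5.18 for Fgfr2, 11.6 for Fgfr3, 25.8 for Egfr, 149 for Dusp6, 34.9 for Etv4 and 212 for Etv5.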
